A study of Mus musculus with 8 samples.

Results

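The transcripts of 9 transient receptor potential (TRP) channel genes of sensory neurons, Trpv1, Trpv2, Trpv4, Trpa1, Trpm2, Trpm3, Trpm8, Trpc1 and Trpc5, were compared between dorsal root ganglia of mutant and wild-type mice. The genes were chosen by name, and all 9 were among the 40800 genes of the table and among the 15030 tested. Dorsal root ganglia hold the cell bodies of the sensory neurons of trunk and limbs. Total RNA was sequenced from 4 wild-type mice, labelled C57BL/6, and 4 mice homozygous for a Tmem184b gene trap on the C57BL/6 background, all aged 6 months, and no driver line, treatment or sex is named for either group. Mice are named by genotype and number, wild types 1, 3, 4 and 8 and mutants 1, 2, 3 and 4.

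TRP channels are cation channels that open to temperature, chemicals, lipids or signals from G protein-coupled receptors, and that depolarize the cell and let in calcium. In sensory endings TRPV1 answers noxious heat and capsaicin, TRPA1 answers electrophilic irritants such as mustard oil, TRPM8 answers cool temperatures and menthol, and TRPM3 answers noxious heat and pregnenolone sulfate. TRPV1 and TRPA1 are also opened or sensitized downstream of itch and inflammatory receptors through phospholipase C and protein kinase C.

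Levels are log2 CPM, the base-2 logarithm of a gene's reads scaled to the library total (CPM) with a small prior count added, as the authors deposited them. Differences are mutant minus wild type on that scale. They come from a limma fit across all tested genes, with Benjamini-Hochberg adjusted p, and a gene counts as changed at an adjusted p under 0.05. Libraries held 6183618 to 7983821 reads. Tmem184b reads numbered 1086 to 1456 per wild type against 34 to 58 per mutant, so every library matched its genotype label. Calca, a neuropeptide gene of peptidergic sensory neurons, averaged 675 ± 9.56 CPM over the 4 wild types against 676 ± 54.1 over the 4 mutants (SD).

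Of the 9 channels 1 changed. Trpa1 was lower in the mutant at 81.7% of the wild-type level, and Trpv1, Trpm3 and Trpm8 did not pass the threshold. Among all tested genes 5.46% passed it, 2.64% lower and 2.81% higher. Without adjustment, 4 of the 9 channels had a p under 0.05, against 21.3% of all tested genes. The 4 mice of one group lay entirely above or below those of the other in 3 of the 9 channels, Trpa1, Trpm3 and Trpm8, against 12.4% of all tested genes. Of these 2 were lower, against 4.92% of all tested genes, and 1 higher, against 7.5%. The median difference over the 9 channels was 0.029, 4 being below 0 and 5 above, beside 0.066 over all tested genes.

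**Figure D1:**
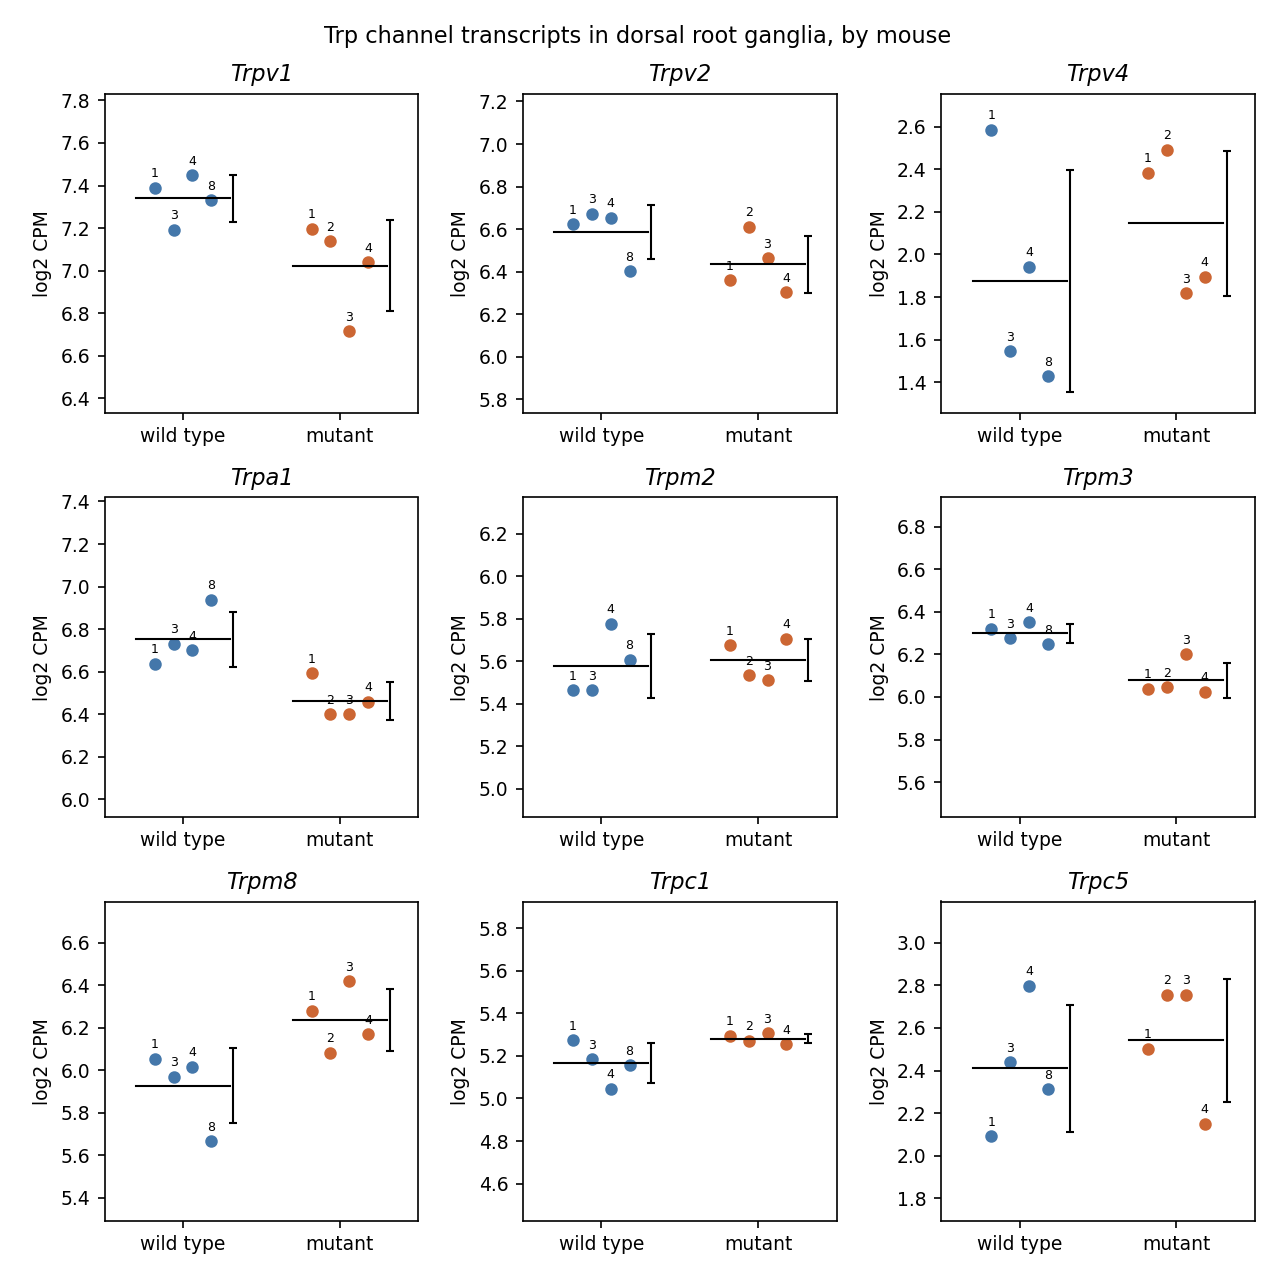
Level of each channel transcript (vertical axis, log2 CPM; every panel spans the same 1.5 log2 units) in each mouse, numbered as in the labels, for wild type (blue) and mutant (orange), with the group mean as a line and the SD as a bar, n = 4 each. Trpa1 and Trpm3 lay lower in all mutants than in any wild type, and Trpm8 lay higher.

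The levels of the channels were set in order per length, as CPM per kilobase of annotated exon. Trpv1 stood highest in wild type at 44.0 ± 3.30, followed by Trpa1 at 25.3 ± 2.37, Trpv2 at 21.4 ± 1.80 and Trpm8 at 12.9 ± 1.5 (CPM per kilobase, SD, n = 4). These 4 channels did not overlap one another in any wild-type mouse. Trpc1 at 4.44 ± 0.291 overlapped Trpm2 at 3.83 ± 0.407, Trpm3 stood at 3.21 ± 0.101, and Trpc5 at 1.02 ± 0.228 overlapped Trpv4 at 0.877 ± 0.371. The order of the means was the same in the mutant, at 35.5 ± 4.99 for Trpv1, 20.7 ± 1.33 for Trpa1, 19.3 ± 1.85 for Trpv2 and 15.9 ± 1.63 for Trpm8. In the mutant Trpa1 overlapped Trpv2 and Trpv2 overlapped Trpm8. Exon length is the union over all annotated transcripts, which is 24.4 kilobases for Trpm3 and 12.5 for Trpm2, so genes with many alternative exons stand lower in this order than they would over a single transcript.

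Trpa1 (ENSMUSG00000032769; chromosome 1, 14872648 to 14918862, minus strand, GRCm38), the irritant channel, stood in wild types 1, 3, 4 and 8 at 6.64, 6.73, 6.70 and 6.94 log2 CPM, against 6.59, 6.40, 6.40 and 6.46 in mutants 1 to 4. All mutants lay below all wild types, with mutant 1 close under wild type 1 and wild type 8 the highest. The difference was -0.29 (SE 0.0731; 95% confidence interval -0.45 to -0.13; limma adjusted p = 0.0335), from 625 to 969 reads in wild type and 520 to 644 in the mutant. The call did not hold without wild type 3 (adjusted p = 0.0694), wild type 8 (0.0765), mutant 2 (0.0902), mutant 3 (0.0653) or mutant 4 (0.0636), and the difference then lay between -0.30 and -0.23. It was also lost without the mean-variance trend (0.143) and with the Xist level as a covariate (0.0508), the labels giving no sex. Xist had 1615 to 1902 reads in wild types 1, 4 and 8 and mutants 1 and 2, and 2 to 7 in the other mice. The groups were thus not balanced for Xist, and with it as a covariate Trpv1 was the only channel called. In bulk RNA, fewer neurons of a class and less transcript per neuron cannot be told apart.

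Trpv1 (ENSMUSG00000005952; chromosome 11, 73234292 to 73261242, plus strand), the heat and capsaicin channel, stood in wild types 1, 3, 4 and 8 at 7.39, 7.19, 7.45 and 7.33 log2 CPM, against 7.20, 7.14, 6.72 and 7.04 in mutants 1 to 4. Only mutant 1 reached the range of the wild types, just above wild type 3, and mutant 3 was the lowest. The mean was 162 ± 12.1 CPM in wild type and 131 ± 18.4 in the mutant, 80.7% of the wild-type mean. The difference was -0.32 (SE 0.0914; 95% confidence interval -0.51 to -0.12) and did not pass at a limma adjusted p of 0.0579. It passed in 4 of 20 alternatives at an adjusted p under 0.05, and in 0 of the 8 fits that left out a mouse. Among the 4 were median centring of the samples (-0.41, adjusted p = 0.0116), removal of the GC trend (-0.39, 0.0111) and the Xist covariate (-0.27, 0.0442). It did not pass under quantile normalization (0.0949) or without the variance trend (0.199).

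Trpm3 (ENSMUSG00000052387; chromosome 19, 22139046 to 22995410, plus strand), a heat and neurosteroid channel, was at 6.32, 6.28, 6.35 and 6.25 log2 CPM for the wild types in the same order, against 6.04, 6.05, 6.20 and 6.02 in the mutants. The wild types lay within a narrow range and above all mutants, of which mutant 3 came nearest to them. The difference was -0.22 (SE 0.0634; 95% confidence interval -0.36 to -0.09; limma adjusted p = 0.0558), or 85.7% of the wild-type CPM, and did not pass. It passed in 4 of 20 alternatives at an adjusted p under 0.05, and in 1 of the 8 fits that left out a mouse. These were without mutant 3 (-0.26, adjusted p = 0.0283), median centring (-0.31, 0.0171), quantile normalization (-0.25, 0.0418) and removal of the GC trend (-0.32, 0.0111). It did not pass without the variance trend (0.143). An annotated antisense gene, Gm27151, with 10 to 33 reads per library, shares exon bases with Trpm3, and strand use in the counting is not given in the sources used here.

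Trpm8 (ENSMUSG00000036251; chromosome 1, 88277661 to 88389293, plus strand), the cold and menthol channel, lay on the other side. It was at 6.06, 5.97, 6.02 and 5.67 log2 CPM in the wild types, against 6.28, 6.08, 6.42 and 6.17 in the mutants. All mutants lay above all wild types, mutant 2 by little, with wild type 8 the lowest and mutant 3 the highest. The mean was 60.9 ± 7.09 CPM in wild type and 75.4 ± 7.74 in the mutant, 124% of the wild-type mean. The difference was 0.31 (SE 0.0928; 95% confidence interval 0.11 to 0.51; limma adjusted p = 0.067) and did not pass in any alternative at that threshold, where its value lay between 0.22 and 0.36. An antisense gene overlapping its exons, 4930453O03Rik, had at most 2 reads in any library.

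The stretches before the RefSeq starts of Trpv1 and Trpm8 are shown because their levels lay on opposite sides. The Trpm8 window lies inside the gene span given above, which begins at 88277661. The Trpv1 window ends at 73234148, short of its gene span, which begins at 73234292. The gene annotation and RefSeq thus place the starts of both genes differently. RUNX1 is a transcription factor that nociceptors need during development to express several Trp channels, and its transcript was lower in the mutant, at 7.42, 7.38, 7.35 and 7.36 log2 CPM in the wild types, against 6.93, 7.10, 7.09 and 6.73 in the mutants (Runx1 difference -0.41, SE 0.0744; limma adjusted p = 0.00567). Runx1 was chosen after its values were seen. Any part of RUNX1, or of the sequences marked below, in the levels of these channels was not tested. The windows are the 250 bases before the RefSeq start in GRCm38.p6, plus strand, 5′ to 3′, and capitals mark the RUNX core hexamer TGTGGT in Trpv1 and the TATA-box hexamer TATAAA in Trpm8, each searched for on both strands and neither overlapping the other here.
Trpv1, chr11:73233899-73234148: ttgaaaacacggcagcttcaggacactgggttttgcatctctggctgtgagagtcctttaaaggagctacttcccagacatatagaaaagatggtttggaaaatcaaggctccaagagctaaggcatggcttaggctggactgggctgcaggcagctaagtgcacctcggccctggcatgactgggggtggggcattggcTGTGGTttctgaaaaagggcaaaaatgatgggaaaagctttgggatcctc
Trpm8, chr1:88306485-88306734: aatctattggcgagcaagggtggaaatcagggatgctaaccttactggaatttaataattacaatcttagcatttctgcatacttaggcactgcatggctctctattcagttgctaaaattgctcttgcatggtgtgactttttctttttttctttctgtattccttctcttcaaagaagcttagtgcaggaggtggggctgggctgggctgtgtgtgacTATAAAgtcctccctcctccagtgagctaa
The Trpv1 window held TGTGGT beginning 50 bases before the RefSeq start, and the Trpm8 window held TATAAA beginning 30 bases before the RefSeq start. RefSeq windows were at hand for 8 of the 9 channels, 11 windows in all, and TGTGGT was in 2 of them, Trpv1 and Trpm3, against 14.0% of all 32851 windows of the same length. TATAAA was in 2, Trpm2 and Trpm8, against 12.4%.

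**Figure D2:**
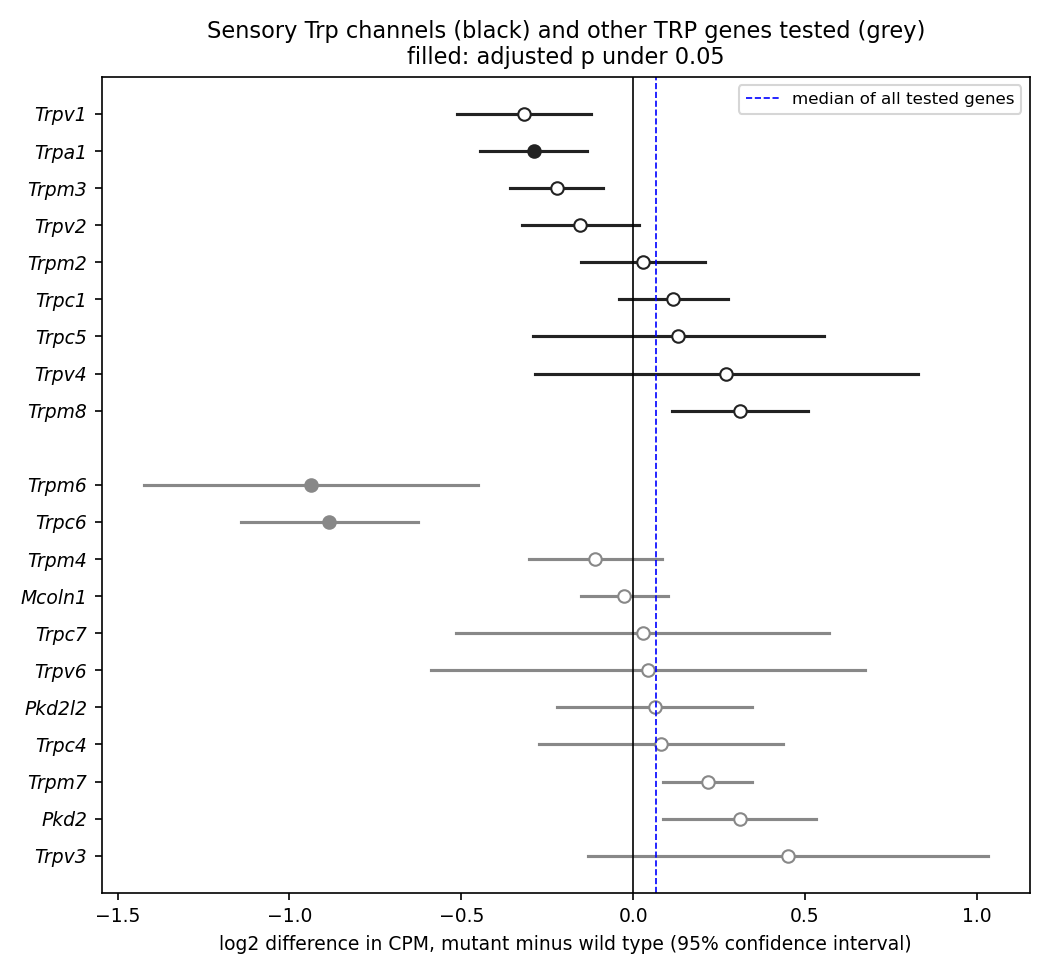
Log2 difference in CPM, mutant minus wild type (horizontal axis), with 95% confidence intervals from limma, for the 9 sensory Trp channels (black) and other TRP genes tested (grey, 1 of 12 not drawn), filled where the adjusted p was under 0.05; the dashed line is the median of all tested genes, 0.066. Filled points are Trpa1, Trpm6 and Trpc6, all lower in the mutant.

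For the other 5 channels the data set bounds. Trpv2, a channel of large neurons and immune cells, was at 6.62, 6.67, 6.65 and 6.40 log2 CPM in the wild types, against 6.36, 6.61, 6.46 and 6.30 in the mutants, with a difference of -0.15 (95% confidence interval -0.32 to 0.02; limma adjusted p = 0.290). Wild type 8 lay among the mutants and mutant 2 close to the other wild types. Trpm2, which is opened by ADP-ribose under oxidative stress, was at 5.46 to 5.78 in wild type and 5.51 to 5.71 in the mutant, 0.03 apart (-0.15 to 0.21; adjusted p = 0.884), and its sign turned under median centring, quantile normalization and GC correction. Trpc1, a subunit of receptor-operated channels, was at 5.05 to 5.27 in wild type and 5.25 to 5.31 in the mutant, 0.12 apart (-0.04 to 0.28; adjusted p = 0.392). The intervals of these 3 channels all include 0 and lie between -0.32 and 0.28.

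Trpv4 and Trpc5 had few reads, and their intervals are wider. Trpv4, an osmotic and warmth channel, had 36, 21, 24 and 19 reads in wild types 1, 3, 4 and 8, against 33, 33, 21 and 24 in mutants 1 to 4. The difference was 0.27 (95% confidence interval -0.29 to 0.83; limma adjusted p = 0.595), and the groups overlapped throughout. Trpc5, a cold-sensitive channel of the canonical subfamily, had 25, 41, 45 and 37 reads in the wild types, against 36, 40, 42 and 29 in the mutants. The difference was 0.13 (-0.29 to 0.55; adjusted p = 0.756), or -0.006 after quantile normalization. Both intervals include 0, and differences of either sign within them remain possible.

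The balance of 3 pairs of channels was taken within each mouse, where library scaling cancels. The pairs were chosen with earlier results of these data known, so the separation of Trpm8 from Trpv1 restates their single levels and is given as a description. Trpm8 minus Trpv1 was -1.33, -1.22, -1.43 and -1.66 log2 units in wild types 1, 3, 4 and 8, against -0.92, -1.06, -0.30 and -0.87 in mutants 1 to 4. All mutants lay above all wild types, with mutant 3 farthest out. The mean went from -1.41 ± 0.188 to -0.785 ± 0.335 (SD, n = 4), a shift of 0.628. An exact permutation test, two-sided over 70 assignments, gave p = 0.0286, the least it can give. Adjusted over 3 pairs this is 0.0857, below which 1 separating pair alone cannot go, so the adjusted value could not have passed for this pair alone. Without mutant 3 the shift was 0.465, and over all leave-one-out fits it lay between 0.465 and 0.718.

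The other pairs did not separate the groups. Trpa1 minus Trpv1 averaged -0.588 ± 0.189 in wild type against -0.560 ± 0.177 in the mutant, 0.028 apart (exact permutation p = 0.857, adjusted 0.857; SD, n = 4). Trpm3 minus Trpv1 was -1.04 ± 0.0847 and -0.945 ± 0.293, 0.095 apart (exact permutation p = 0.771, adjusted 0.857). As a share of the summed per-length level of the 9 channels, Trpv1 held 37.6% ± 1.76 in wild type and 33.7% ± 3.42 in the mutant, Trpa1 21.7% ± 2.46 and 19.7% ± 0.922, and Trpm8 10.99% ± 1.15 and 15.2% ± 2.06 (SD, n = 4). Shares of a sum depend on one another and were not tested.

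**Figure D3:**
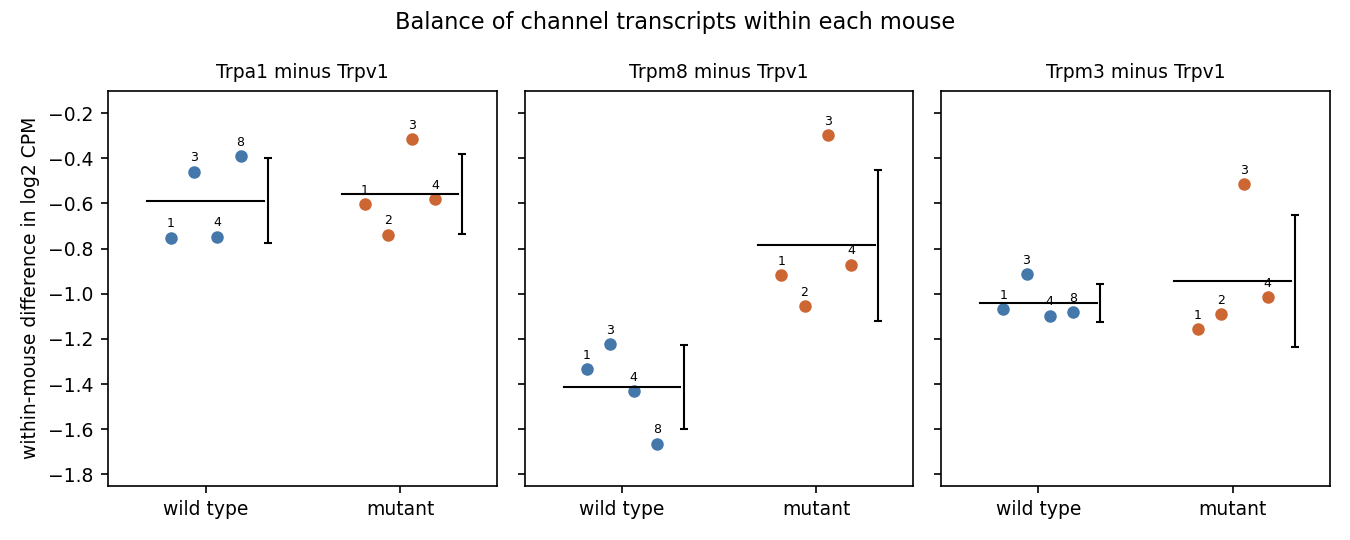
Difference in log2 CPM between a pair of channels within each mouse (vertical axis) for wild type (blue) and mutant (orange), with group means as lines and SD as bars, n = 4 each. Trpm8 minus Trpv1 lay between -1.66 and -1.22 in the wild types and between -1.06 and -0.30 in the mutants, while the groups overlapped for the other pairs.

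The other genes of the TRP family that fell included Trpc6 and Trpm6. Of 19 listed, 12 had enough reads to be tested. Of these 3 fell, none rose and 9 did not pass, against 2.64% lower and 2.81% higher among all tested genes. The median difference of the 12 was 0.035 beside 0.066 over all tested genes. Trpc6, a channel opened by diacylglycerol, was at 4.69, 4.56, 4.42 and 4.65 log2 CPM in the wild types, against 3.47, 3.79, 3.96 and 3.57 in the mutants, with no overlap (-0.88, SE 0.121; limma adjusted p = 0.00112). Trpc6 passed in all 20 alternatives at that threshold, and without the variance trend it was the only 1 of the 12 to pass.

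Trpm6, a magnesium channel fused to a kinase, had 23, 34, 43 and 35 reads in the wild types, against 14, 19, 15 and 12 in the mutants (-0.94, SE 0.227; limma adjusted p = 0.0269). Its groups did not overlap, and it passed in 13 of 20 alternatives, failing with no filter on low values (0.0539), without the variance trend (0.0742), without wild type 3 (0.055), 4 (0.0632) or 8 (0.0536) and without mutant 1 (0.0679) or 4 (0.0775). Its relative Trpm7 was at 5.88 to 5.97 log2 CPM in wild type and 6.09 to 6.19 in the mutant, with no overlap. The Trpm7 difference of 0.22 missed the threshold narrowly (limma adjusted p = 0.0501). Under the stricter filter, with a pseudocount of 1 CPM and without wild type 4, 1 gene of this family list was called higher. The lysosomal channel Mcoln1 (-0.03) and the calcium-activated Trpm4 (-0.11) did not pass, at adjusted p of 0.850 and 0.531. Trpc2, Trpv5, Trpm1 and Mcoln3 had at most 1 read in any library, and Trpm5, Pkd2l1 and Mcoln2 had at most 5.

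Genes that act on TRPV1 and TRPA1 from inside the cell were taken as a list of 26 regulators, all tested. The list was chosen with earlier results of these data known. Among all tested genes 2.64% were called lower and 2.81% higher, with a median of 0.066. Of the 26 regulators 7 fell, none rose and 19 did not pass, with a median difference of -0.072. Those that fell included Plcb3, the phospholipase of Gq-coupled receptors (-0.61, SE 0.08; limma adjusted p = 0.000917), and Gnaq, the Gq alpha subunit (-0.37, SE 0.0612; 0.00346). The kinase genes Prkca (-0.59, SE 0.0758; 0.000661), Prkce (-0.30, SE 0.0649; 0.0149) and Src (-0.30, SE 0.0655; 0.0163) fell as well, while Cdk5, also a kinase that acts on TRPV1, was at 0.14 (0.286), Plcg1, another phospholipase C, at 0.12 (0.363) and Gna11, a relative of Gnaq, at -0.01 (0.950). Syt9, a synaptotagmin that binds TRPV1, fell by 0.62 (0.00105) and the ubiquitin ligase Nedd4l by 0.34 (0.02). Plcb3 was at 792 ± 40.8 CPM in wild type and 523 ± 67.0 in the mutant, and Prkca at 673 ± 21.3 and 448 ± 56.7 (SD, n = 4), with no overlap in either.

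Plcb3, Prkca and Syt9 passed in all 20 alternatives at that threshold. Gnaq missed the threshold without the variance trend (0.0713). Without wild type 1, Prkce (0.0589), Src (0.062) and Nedd4l (0.0696) no longer passed, nor did Nedd4l without wild type 3 (0.0568), and without the variance trend 3 of the 26 passed. The channel partners Pirt, a membrane protein that raises TRPV1 and TRPM8 activity, and Tmem100, an adaptor between TRPA1 and TRPV1, did not pass. Pirt was at 1301 ± 98.6 CPM in wild type and 1220 ± 32.2 in the mutant, a difference of -0.09 (95% confidence interval -0.22 to 0.04; limma adjusted p = 0.419). Tmem100 differed by -0.04 (-0.37 to 0.28; adjusted p = 0.904).

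Receptors that open or sensitize TRPV1 and TRPA1 formed a list of 28, of which 25 were tested. Of these 9 fell and 1 rose, against 2.64% and 2.81% of all tested genes. The other 15 did not pass, and the list median was -0.29 beside 0.066. Without the variance trend 5 fell and none rose. The falls were Il31ra, Cysltr2, Osmr, Lpar5, Hrh1, Mrgprd, Mrgpra3, Mrgprx1 and Il6st. Of these Il31ra, Osmr and Cysltr2 also stand on the list of NP3 neuron markers, Mrgprd and Lpar5 on that of NP1 neurons, and Mrgpra3 and Mrgprx1 on that of NP2 neurons, so they are not a separate set. Hrh1, the histamine receptor upstream of TRPV1, had 50, 45, 39 and 57 reads in the wild types, against 22, 17, 21 and 26 in the mutants (-0.96, SE 0.179; limma adjusted p = 0.00699). Mrgpra3, of a multigene family, passed narrowly (-0.80; adjusted p = 0.0438) and in 9 of 20 alternatives; wild type 8 stood at 5.21 log2 CPM, and without it the difference was -0.56 (0.0829). The call of Mrgpra3 was also lost without wild type 1 (0.0667) or mutants 1 (0.0915), 2 (0.057) or 4 (0.115). The tumour necrosis factor receptor Tnfrsf1a rose (0.40, SE 0.108; limma adjusted p = 0.0465), a call that held in 8 of 20 alternatives and in 2 of the 8 fits that left out a mouse, those without wild type 4 and without mutant 3.

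Other channels of temperature sensing and excitability, 18 in number and all tested, had 5 falls and 1 rise. Among all tested genes 2.64% fell and 2.81% rose. The other 12 channels did not pass, and the list median was 0.012 beside 0.066 over all tested genes. The sodium channels Scn11a (-0.71) and Scn10a (-0.46), the chloride channel relative Ano3 (-0.41), the acid-sensing Asic2 (-0.48) and the potassium channel Kcnk18 (-0.55) fell, at limma adjusted p of 0.00157, 0.00956, 0.00994, 0.00346 and 0.0209. Asic3, an acid-sensing channel, rose by 0.30 (SE 0.0596; limma adjusted p = 0.00994), from 146 ± 6.90 to 180 ± 10.6 CPM (SD, n = 4) with no overlap. The call of Asic3 was lost under median centring (0.21; adjusted p = 0.111), with the GC trend removed (0.22; 0.0897) and without the variance trend (0.0899). Scn11a also stands on the list of NP1 neuron markers. Kcnk18 passed in 11 of 20 alternatives, and of the 8 fits that left out a mouse only those without wild type 4 and without mutant 3 called it. Without the variance trend none of the 18 passed in either direction. The heat-activated chloride channel Ano1 differed by 0.27 and did not pass (adjusted p = 0.107).

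**Figure D4:**
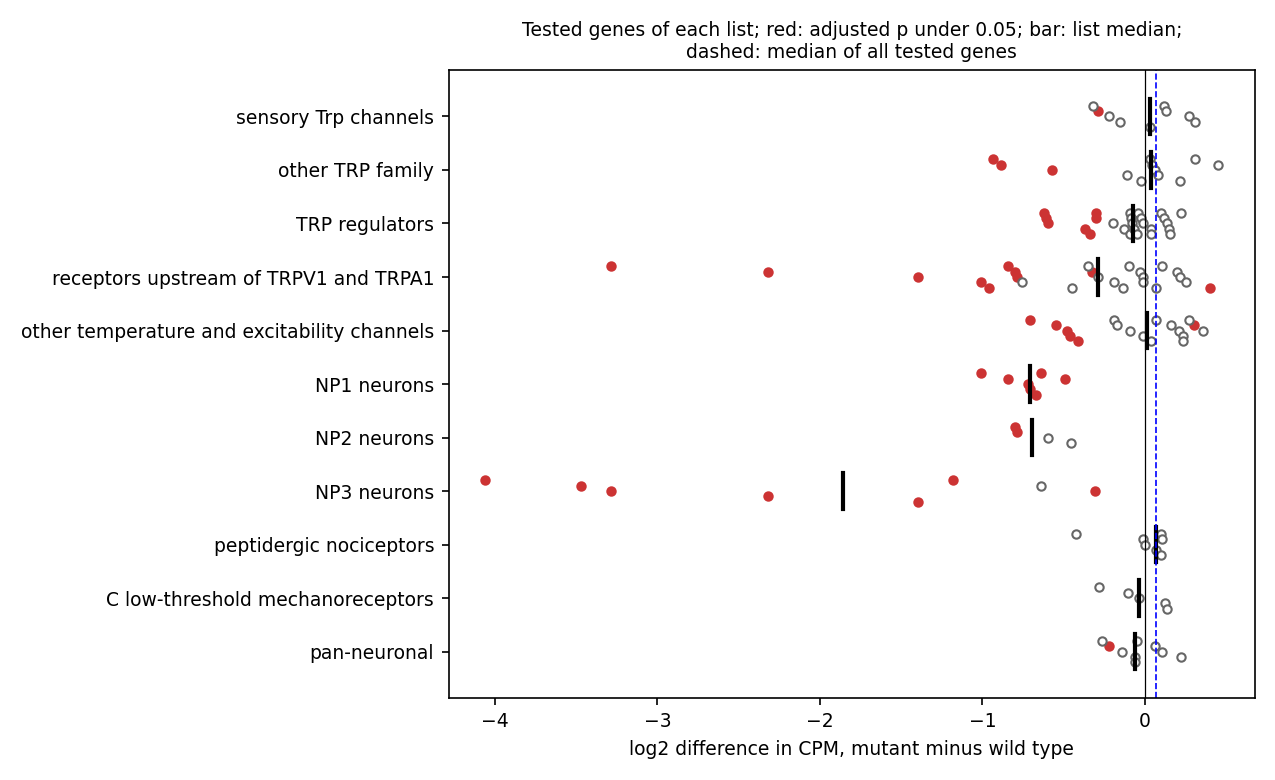
Log2 difference in CPM, mutant minus wild type (horizontal axis), for each tested gene of the sensory Trp channels, 4 related lists and 6 sets of neuron markers (rows), red where the adjusted p was under 0.05, with the list median as a bar; the dashed line is the median of all tested genes. The Trp channels lay between -0.32 and 0.31. All 7 NP1 markers and 7 of 8 NP3 markers were lower at that threshold, against 2.64% of all tested genes.

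Marker lists of neuron classes and of other cells were compared as well, and some fell while others did not. For comparison, 2.64% of all tested genes were called lower and 2.81% higher, with a median of 0.066. All 7 NP1 markers, of nonpeptidergic nociceptors, fell, with a median of -0.71 and a summed level of 2188 to 2414 CPM in the wild types against 1170 to 1743 in the mutants. Of the 8 NP3 markers, of somatostatin itch neurons, 7 were called lower, with a median of -1.86 and summed levels of 672 to 720 and 458 to 499.8 CPM, and the defining marker Nppb had 13 to 40 reads per wild type and 0 to 1 per mutant. Of the 4 NP2 markers 2 were called lower, with a median of -0.69 and summed levels of 63.5 to 98.0 and 34.0 to 65.6 CPM. None of the 7 peptidergic markers was called, with a median of 0.07 and summed levels of 1263 to 1328 and 1235 to 1360 CPM, and of 9 pan-neuronal genes 1 was called lower, with a median of -0.06. None of 5 tested markers of C low-threshold mechanoreceptors was called, with a median of -0.04. Of 7 markers of large neurofilament neurons 1 was called higher, with a median of 0.20. Immune markers, 9 in number, summed to 51.2 to 81.9 CPM in the wild types against 70.2 to 112 in the mutants, and 1 of 8 tested was called higher, with a median of 0.53. Among 6 satellite glia, 7 Schwann cell and 6 fibroblast markers, 2, 2 and 1 were called higher and none lower. None of 7 skeletal muscle markers was called, but all 7 were above 0, with a median of 1.60 and summed levels of 3.81 to 38.2 CPM in the wild types against 12.4 to 164 in the mutants. The part of these markers in the levels of the Trp channels was not tested.

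Genes whose pattern over the 8 mice was most like that of a channel were found by the root mean square difference of log2 CPM, each gene centred on its own mean, among 10118 genes. Nearest to Trpa1 were Mpped2 at 0.0571, Ina, which encodes the neuronal filament alpha-internexin, at 0.0622 and Pygl, a glycogen phosphorylase, at 0.0729 log2 units. Nearest to Trpv1 were Pusl1 at 0.0835, the signalling adaptor Shc1 at 0.0843 and 3425401B19Rik at 0.0878. Nearest to Trpm8 were Ric1 at 0.066, the sodium-activated potassium channel Kcnt2 at 0.0692 and Dcbld2 at 0.0794. Mpped2 (-0.34; limma adjusted p = 0.034) and Ina (-0.34; 0.0141) fell, and the other 7 did not pass. Nearness was measured over the same 8 mice, with the genotype difference included. The directions of these genes thus follow from how they were chosen and are no separate result.

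The direction of calls over all genes depended on scaling. As deposited, 423 of 820 called genes (51.6%) were higher in the mutant, and after median centring 204 of 910 (22.4%) were, the median of all tested genes going from 0.066 to -0.026. After median centring 3 of the 9 Trp channels passed, Trpa1, Trpv1 and Trpm3, all lower. Trpm8 was then at 0.22 and did not pass (adjusted p = 0.234).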

How the data were processed

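RNA from dorsal root ganglia of 4 wild-type and 4 mutant mice was read as single-end 150-base Illumina libraries, per the labels' protocols. Salmon 0.11.1, DESeq2 and mm9 are named in the submitters' processing notes, with no role given, and strand use is not given in the sources used here. The authors deposited log2 CPM with a prior count, and the percent GC of each gene in the same deposited table. It had 41422 lines and 40800 distinct identifiers, and 402 identifiers repeated with equal values were used once. The floor of -1.79 is 0 reads. Of all values, those at the floor included, 100.0% were whole reads within 0.01 of a read. This gave back reads per gene and library totals, with a prior averaging 2.0 reads. Running numbers in the column names are consecutive in the mutants alone and of unstated meaning, so a batch in them cannot be told apart from genotype.

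Genotypes were compared with limma 3.58.1 under R 4.3.3, two-sided, with variances moderated along a trend over the mean level, in the 15030 genes with log2 CPM above 0 in at least 4 of 8 samples, with Benjamini-Hochberg adjustment over all of them. The procedure was run on simulated data whose changed genes moved more than the channels did. Changes as small as theirs were not simulated. Each motif was also searched as its reverse complement. Pairs of channels were compared by exact permutation in Python 3.11.15. Identifiers were looked up in GENCODE M21 (GRCm38) for positions and exon lengths, and promoters were taken from RefSeq GRCm38.p6, neither being the mm9 of the notes. Alternatives covered filters, pseudocount (1 CPM), scaling, variance model, voom on the recovered reads, Xist, GC, replicate block, single samples left out and threshold. Same-numbered samples correlated at 0.081, 0.041 and 0.058 in their deviations, below the highest with another number (0.105, 0.097 and 0.064). These values do not settle whether the numbers pair the mice. Genes were named by rule: the 9 channels, Tmem184b, called members of the 4 lists of related genes, tested members of the other TRP family, the 3 nearest patterns of Trpa1, Trpv1 and Trpm8, and up to 2 markers a class. Runx1, Pirt, Tmem100, Cdk5, Plcg1, Gna11 and Ano1 fall outside that rule and were chosen after their values were seen, and the TRP genes not tested are named only to account for them. Members and lists were chosen with earlier results of these data known. Some genes of the lists are counted but not reported here by name, and are not drawn where a plot names genes.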

Additional observations from a re-analysis of the deposited data

Results flagged for a closer look

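In 78 groups of 4 values, 4 held a mouse far from the other 3 by Dixon's test at a critical value of 0.829, where chance gives about 3.9. Trpm3 in mutant 3 was at 6.201 log2 CPM against 6.02 to 6.05 in the other mutants. Trpm3 minus Trpv1 in wild type 3 was at -0.9145 log2 units against -1.10 to -1.07 in the other wild types. Ano3 in mutant 3 was at 8.625 log2 CPM against 8.27 to 8.31 in the other mutants, and Mrgpra3 in wild type 8 was at 5.206 against 4.16 to 4.33 in the other wild types.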

How the results depend on the processing

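The 9 channels had 1 call as reported, 3 under median centring, 3 with the GC trend removed, 2 under quantile normalization, 0 without the variance trend and 4 at an adjusted p under 0.1, and the cause was not tested. With 1 mouse left out the calls ranged from 0 to 1. Over all genes, 142 were called without the variance trend and 1488 at an adjusted p under 0.1, beside 820, and 404 to 935 with 1 mouse left out. Among results for single channels, 162 kept their side of the threshold and direction, 11 gained a call, 9 lost one and 7 changed sign. Those that changed sign were Trpm2, at -0.0637 under median centring, -0.0143 under quantile normalization, -0.0451 with the GC trend removed, -0.00968 without wild type 1, -0.00947 without wild type 3 and -0.00458 without mutant 4 (0.0948 without wild type 4), and Trpc5, at -0.00645 under quantile normalization. Tmem184b was called in all 20 alternatives at that threshold.

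Whether the replicate numbers 1, 3 and 4 shared by the genotypes pair the mice was not settled. With them as a replicate block over those 6 mice, Trpv1 was the only channel called (-0.36; 0.0247), Trpa1 was not (-0.21; 0.185), and 671 genes were called; the same 6 mice with no block gave 0 channels and 447 genes. In that block Trpm8 minus Trpv1 shifted by 0.634, where 3 pairs cannot give an exact p below 0.25. With 1 mouse left out, Trpa1 minus Trpv1 ranged from -0.0532 to 0.0938, changing sign without wild type 1 (-0.0264), wild type 4 (-0.025) and mutant 3 (-0.0532). Trpm3 minus Trpv1 ranged from -0.0482, without mutant 3, to 0.166.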
